A study of Mus musculus with 24 samples.

Results

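Molecular chaperones of the cytosol and mitochondria were followed across 4 groups of mouse fat. Members were taken by symbol: Hspa, Hspb, Hspd, Hspe, Hsph, Hsp90a, Dnaja, Dnajb and Dnajc genes with Bag3, Chordc1, Ahsa1, Stip1, Cacybp, Fkbp4 and Ppid, leaving out Hspa5, Dnajb9, Dnajb11, Dnajc3, Dnajc10 and pseudogene symbols. This rule found 72 rows among the 16233 genes of the table, under 71 symbols, because Hspa14 has 2 rows. A symbol does not fix a location, and some members, such as Hspa13 of the secretory pathway and Dnajb12 of the endoplasmic reticulum membrane, are not strictly cytosolic or mitochondrial.

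The tissue was inguinal white adipose tissue, fat from under the skin of the groin, from male C57BL6 mice of 10 to 11 weeks, with no transgene or drug named in the labels. Each group had 6 libraries. ZT3_SED and ZT15_SED mice had a sham hour on an artificial treadmill, and ZT3_RUN and ZT15_RUN mice exercised for 1 hour, with lights on at ZT3 and under a red lamp in the dark at ZT15. All mice were killed under isoflurane. ZT counts hours after lights on, so that ZT3 lies in the early light, when mice rest, and ZT15 in the early dark, when they are active. The labels give ZT as the sampling time and no hour after the bout, so the delay between bout and sampling is not stated here. A library is called by its group and a number given in the order of the records, which pairs no samples, and the labels do not tie each library to its own animal: the p-values below therefore speak of the spread among libraries, which may be technical.

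Chaperones bind unfolded stretches of other proteins and release them by cycles of ATP binding and hydrolysis. Hsp70 proteins are loaded by J-domain proteins of the DNAJ family and emptied by nucleotide exchange factors, and Hsp90 finishes the folding of kinases and steroid receptors with its own cochaperones. In mitochondria, Hsp60 with its lid Hsp10 and a dedicated Hsp70 fold imported proteins. Many, but not all, of these genes are switched on by heat shock factor 1, which binds inverted repeats of GAA, and body temperature and feeding give several of them a daily rhythm in mouse tissues.

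Promoter sequence is shown for Hspa2, Dnaja2 and Dnajb6, the members whose time-of-day call was kept in most settings, and for Hspe1, Hspa1a and Hspa1b, which were not called, as members whose promoters carry the heat shock repeat. It comes from the RefSeq table of GRCm38.p6, which held windows of 300 bases for 58 of the 71 symbols and none for Hspa8 or Ppid. The first pair carries, in capitals, the heat shock element of 3 alternating units, spelled GAA, 2 free bases, TTC, 2 free bases, GAA, searched on both strands in the 250 bases before the start. The Dnajb6 stretch lies at chr5:29735844-29735873 on the plus strand. The Hspe1 stretch lies at chr1:55088055-55088084 on the plus strand, where overlapping matches on both strands join into 1 block, and it is shared with Hspd1, which starts on the other strand so that the 2 windows overlap by 285 of 300 bases.
Dnajb6: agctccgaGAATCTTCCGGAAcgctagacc
Hspe1: tccgTTCTAGAACCTTCCGGAAggccccgc
The next pair is the stress-inducible Hsp70 genes, Hspa1a at chr17:34972157-34972306 and Hspa1b at chr17:34959239-34959388, both on the minus strand, with the shorter repeat GAANNTTC in capitals. Their windows were identical at 247 of 250 bases.
Hspa1a: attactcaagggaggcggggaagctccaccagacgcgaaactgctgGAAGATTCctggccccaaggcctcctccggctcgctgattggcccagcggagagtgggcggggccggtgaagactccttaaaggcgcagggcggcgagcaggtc
Hspa1b: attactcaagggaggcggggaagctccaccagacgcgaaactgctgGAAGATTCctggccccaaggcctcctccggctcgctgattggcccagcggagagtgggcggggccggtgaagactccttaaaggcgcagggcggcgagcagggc
The last pair, Hspa2 at chr12:76404290-76404369 on the plus strand and Dnaja2 at chr8:85555362-85555511 on the minus strand, held neither repeat anywhere in the 250 bases.
Hspa2: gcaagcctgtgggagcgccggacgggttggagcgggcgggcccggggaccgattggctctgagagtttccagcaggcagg
Dnaja2: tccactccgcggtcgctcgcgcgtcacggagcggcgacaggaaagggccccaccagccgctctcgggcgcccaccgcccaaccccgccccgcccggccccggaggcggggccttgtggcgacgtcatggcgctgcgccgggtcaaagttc

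The longer element was found in 4 of 75 member windows, those of Dnajb6 (2 windows), Hspd1 and Hspe1, and in 0.466% of all promoter windows of the same length. The shorter repeat, which every longer element contains, was found in 13 of 75 member windows and in 6.69% of all. The E-box CACGTG, to which clock factors bind, was found in 5 of 75 member windows and in 6.02% of all, and the glucocorticoid element, AGAACA, 3 free bases and TGTTCT, in 0 of 75 and in 0.00913% of all. These matches describe the letters of the windows and are no evidence of binding.

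Libraries held 18.5 to 34.7 M reads, and values below are RPM, reads scaled to library size, after TMM adjustment between libraries. Fat cell markers were high in every library, the summed value of Adipoq, Plin1, Fabp4, Lep, Cidec and Lipe ranging from 7671 to 21006. Other tissue differed between libraries. Ucp1, the uncoupling protein of brown and beige fat, exceeded 100 in ZT15_SED_1, ZT15_RUN_1 and ZT15_RUN_6, which also had the highest values of the muscle myosin Myh4. Cd79a, a B cell gene, exceeded 5 in ZT3_RUN_4, ZT15_SED_3 and ZT15_SED_5. At ZT3, Tsc22d3, a glucocorticoid-induced gene, was 390 in ZT3_SED_1 against 129 to 189 in the other sham libraries, and 127 in ZT3_RUN_1 against 300 to 395 in the other exercised ones. On Tsc22d3 each of these 2 ZT3 libraries lies with the other ZT3 group. Whether their labels were exchanged was not tested, and the labels were kept as given. Every value below that uses the ZT3 groups, for exercise or for time of day, rests on them. The called members and most of those described at length are given with and without some, not all, of the libraries that stand apart. In bulk tissue, fewer cells of a type and less RNA per cell cannot be told apart.

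Most calls among the members came from time of day. In sedentary mice 4 of 72 members were higher at ZT15 than at ZT3 and 0 were lower, at an adjusted p under 0.05 (limma on log2(value + 1), Benjamini-Hochberg over all 16233 genes). In all genes 1.18% were called, 0.616% higher and 0.561% lower. At an unadjusted p under 0.05 there were 16 members, where 12.1% of all genes were. In exercised mice 5 members were higher and 0 lower, where 4.19% of all genes were called, 2.56% higher and 1.63% lower, and 27 members had an unadjusted p under 0.05, where 20.8% of all genes did. Hspa2, Dnaja2, Dnajb6 and Hspa8 were called in both comparisons, and Dnajb12 was called in exercised mice. The 2 comparisons use different libraries and share the estimate of the spread.

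Hspa2, a member of the Hsp70 family best known for its role in male germ cells, showed the largest difference of the called genes. Its values were 5.20, 6.53 and 7.85 (lowest, median, highest) in ZT3_SED and 5.54, 6.61 and 8.06 in ZT3_RUN. They were 8.90, 13.5 and 17.7 in ZT15_SED and 11.7, 14.1 and 14.9 in ZT15_RUN. Every ZT15 library lay above every ZT3 library. The log2 difference was 0.90 ± 0.12 (SE, n = 6 per group, adjusted p = 0.0003) in sedentary mice and 0.93 ± 0.12 (adjusted p = 0.000118) in exercised mice. Between exercised and sham mice Hspa2 differed by 0.02 ± 0.12 at ZT3 and 0.05 ± 0.12 at ZT15, neither past the threshold. Hspa2 was still called in both comparisons without the Ucp1-high libraries (0.88 and 1.01) and without the Cd79a-high ones (1.02 and 0.89).

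Dnaja2 is a J-domain partner of the constitutive Hsp70. Its values were 106, 115 and 119 in ZT3_SED, 105, 109 and 125 in ZT3_RUN, 127, 146 and 169 in ZT15_SED, and 134, 170 and 181 in ZT15_RUN. The groups of the 2 times did not overlap, whether sham or exercised. The log2 difference was 0.36 ± 0.07 (adjusted p = 0.0145) in sedentary and 0.53 ± 0.07 (adjusted p = 0.000253) in exercised mice. Without the Ucp1-high libraries it was 0.31 and 0.47, still past the threshold.

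Dnajb6, a J-domain protein that holds back the aggregation of other proteins, had values of 22.5, 26.6 and 31.7 in ZT3_SED and 24.9, 29.0 and 34.3 in ZT3_RUN. They were 35.0, 36.0 and 42.1 in ZT15_SED and 36.0, 46.4 and 51.6 in ZT15_RUN. Again no ZT3 library reached the lowest ZT15 one. The log2 difference was 0.46 ± 0.10 (adjusted p = 0.0145) and 0.61 ± 0.10 (adjusted p = 0.000832). With the Ucp1-high and Cd79a-high libraries both left out, the sedentary difference was 0.53 (adjusted p = 0.0540), and that of Dnaja2 0.32 (adjusted p = 0.0617), so neither then passed. Of the 38-base windows of the Dnajb6 transcript, 44.3% also occur in transcripts of other genes, chiefly Gm2541, so its level is uncertain where the counting could split reads; Hspa2, Dnaja2 and Dnajb12 share none.

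Hspa8 is the constitutive cytosolic Hsp70 known as Hsc70. Its values were 514, 550 and 753 in ZT3_SED, 552, 650 and 758 in ZT3_RUN, 684, 757 and 1030 in ZT15_SED, and 761, 894 and 1073 in ZT15_RUN. The sham groups overlapped through ZT3_SED_6, while the exercised groups did not. The log2 difference was 0.46 ± 0.11 (adjusted p = 0.0455) in sedentary mice and 0.45 ± 0.11 (adjusted p = 0.0241) in exercised mice. Without the Ucp1-high libraries the differences were 0.38 (adjusted p = 0.0997) and 0.37 (adjusted p = 0.114), so the call was lost in both. With ZT3_SED_1 and ZT3_RUN_1 set aside the Hspa8 call was also lost in both. Transcripts of other genes, chiefly Gm15459, hold 58.0% of its 38-base windows.

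Dnajb12, a J-domain protein anchored in the endoplasmic reticulum membrane, was 35.5, 38.7 and 39.6 in ZT3_RUN and 39.3, 45.8 and 55.5 in ZT15_RUN. The groups overlapped through ZT15_RUN_3 alone, and the log2 difference was 0.25 ± 0.07 (adjusted p = 0.0482). In sedentary mice it was 0.11 ± 0.07 (adjusted p = 0.590). Without the Ucp1-high libraries the exercised difference was 0.17 (adjusted p = 0.244), and with title numbers as blocks 0.25 (adjusted p = 0.0530), so neither passed. The call was also lost without the Cd79a-high libraries and with ZT3_SED_1 and ZT3_RUN_1 set aside. It was kept in 6 of 24 fits that left out a single library.

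**Figure D1:**
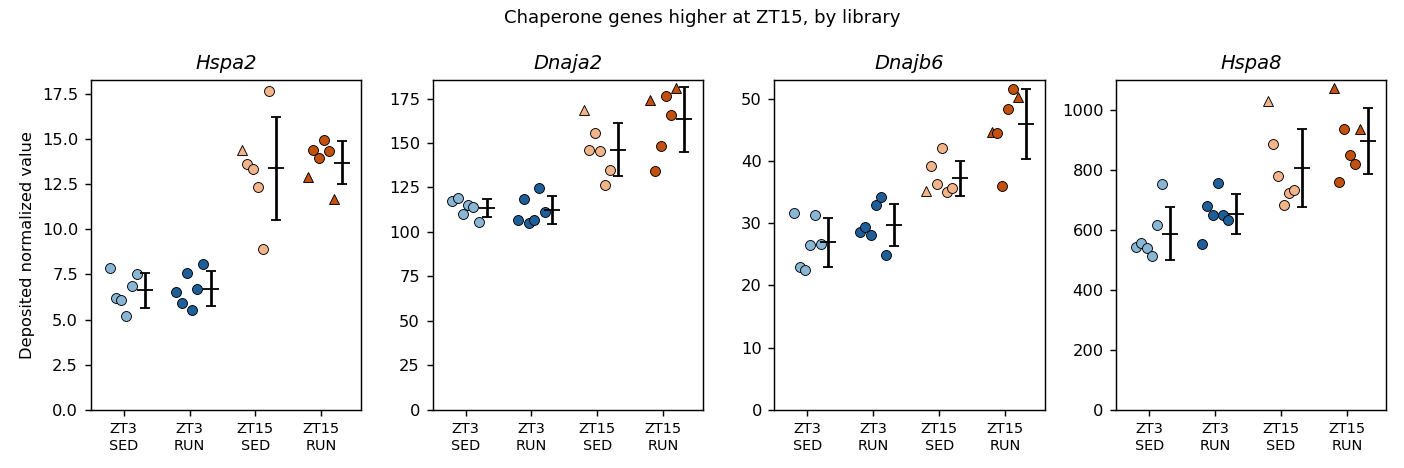
Deposited normalized values (vertical axis, starting at 0) of the members called for time of day in both comparisons, by group (horizontal axis). Each point is 1 library, triangles are the 3 libraries with Ucp1 above 100, and bars give the mean ± SD of 6 libraries; for Hspa2, Dnaja2 and Dnajb6 every ZT15 point lies above every ZT3 point.

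By role, the members were counted above or below 0 whether or not they passed. Of the 10 rows of the Hsp70 family outside mitochondria, Hspa13 among them, 8 were above 0 in each comparison, with medians of 0.19 in sedentary and 0.27 in exercised mice. Of the 13 DNAJA and DNAJB genes, 9 were above 0 in sedentary mice and 13 in exercised mice, with medians of 0.16 and 0.40. All 8 Hsp90 and cochaperone genes were above 0 in both, with medians of 0.29 and 0.20, and so were all 8 mitochondrial members, with medians of 0.11 and 0.26. The 19 DNAJC genes, many of them with specialised tasks outside folding, had medians of 0.03 and -0.01 and no call. In sedentary mice 4 of 5 Hsp110 and exchange factor genes and 4 of 7 small heat shock proteins were above 0, with medians of 0.10 and 0.11. The other 2 symbols, Hspb11 and Hspbap1, were both below 0 there, with a median of -0.09. Without the Ucp1-high libraries the counts were 6 and 7 of 10 for this Hsp70 group, 8 and 12 of 13 for DNAJA and DNAJB, 8 and 7 of 8 for Hsp90 (Cacybp turned to -0.019 in exercised mice) and 6 and 8 of 8 for the mitochondrial members (Hspa9 turned to -0.0027 in sedentary mice). Over all 72 members 53 and 58 were above 0, with medians of 0.12 and 0.21, beside 54.02% and 48.9% of all genes and medians of 0.02 and -0.01. Leaving those libraries out, 44 and 49 of the 72 were above 0, with medians of 0.07 and 0.08, beside 52.9% and 46.4% of all genes and medians of 0.01 and -0.02. Macrophage markers (Adgre1, Cd68, Csf1r, Mrc1) were below 0 in 4 of 4 in both comparisons, with medians of -0.65 and -0.54 and no call. Their summed value was 555 to 976 in ZT3_SED, 454 to 1065 in ZT3_RUN, 272 to 828.6 in ZT15_SED and 317 to 1010 in ZT15_RUN, and its part in the members' differences was not tested.

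A list of 18 members known to be induced by heat shock was read in the same way. Of these, 17 were above 0 in sedentary mice (all but Bag3) and 18 in exercised mice, with medians of 0.32 and 0.38, yet Hspa8 alone passed the threshold. The highest of the 24 libraries was a Ucp1-high one for 16 of the 18 genes and for 45 of 72 members, and all 3 were among the 5 highest for 16 of the 18. The share of all genes that peak in these libraries was not counted, so these counts cannot be read as particular to chaperones. Without these libraries 15 of 18 were above 0 in sedentary and 17 of 18 in exercised mice, the medians were 0.22 and 0.27, and none passed. Of all genes, 52.9% and 46.4% were then above 0, and 142 and 218 of 16233 were called. The brown and beige marker list (Ucp1, Cidea, Cox7a1, Ppara, Elovl3, Dio2; 6 of 6 measured) had summed values of 44.6 to 268 in ZT3_SED, 38.9 to 195 in ZT3_RUN, 100.4 to 592 in ZT15_SED and 87.7 to 1423 in ZT15_RUN, and Elovl3 was at 0 in 1 library. The Ucp1-high libraries were also the highest in Myh4, and all are ZT15 libraries. Leaving them out removes brown or beige and muscle RNA together, so the part of either in the result was not tested.

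Hsph1 is the Hsp110 that exchanges the nucleotide of Hsp70. It was 93.1, 101 and 186 in ZT3_SED and 140, 175 and 315 in ZT15_SED, with ZT15_SED_1 on top. In exercised mice it went from 90.7, 146 and 211 at ZT3 to 156, 229 and 322 at ZT15, with ZT15_RUN_1 on top. Groups overlapped at both. The log2 differences were 0.67 ± 0.24 (adjusted p = 0.197) and 0.67 ± 0.24 (adjusted p = 0.107), and 0.53 and 0.48 without the Ucp1-high libraries. Its relative Hspa4l differed by 0.50 ± 0.16 (adjusted p = 0.135) and 0.51 ± 0.16 (adjusted p = 0.0713), and by 0.39 and 0.44 without those libraries. Bag3, another exchange factor, differed by -0.06 ± 0.22 (adjusted p = 0.946) and 0.76 ± 0.22 (adjusted p = 0.0524).

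The inducible Hsp70 pair varied widely between libraries. Hspa1b ran from 4.70 in ZT15_SED_5 to 61.1 in ZT15_RUN_1, and Hspa1a from 2.94 to 36.8 in the same libraries. In ZT15_SED the lowest, median and highest Hspa1b values were 4.70, 12.7 and 45.9, against 6.80, 11.2 and 23.0 in ZT3_SED, so that the ZT15 group enclosed the ZT3 group. The Hspa1b log2 differences were 0.28 ± 0.43 and 1.02 ± 0.43 (adjusted p = 0.845 and 0.176). The first turned to -0.04 without the Ucp1-high libraries. The 2 genes share most of their transcript, 65.9% of Hspa1b windows and 68.8% of Hspa1a windows occurring elsewhere, so neither level is certain on its own.

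Among Hsp90 genes and cochaperones, Hsp90aa1, the inducible cytosolic Hsp90, differed by 0.32 ± 0.17 and 0.38 ± 0.17 (adjusted p = 0.466 and 0.195; 61.1% of its windows occur elsewhere), and Hsp90ab1, the constitutive form, by 0.21 ± 0.12 and 0.20 ± 0.12. Chordc1 had the smallest p of this group in sedentary mice after Ppid, at 0.42 ± 0.12 (adjusted p = 0.110), followed by Ahsa1, which speeds the Hsp90 ATPase, at 0.36 ± 0.12 (adjusted p = 0.158). Stip1, the adaptor that joins Hsp70 to Hsp90, differed by 0.31 ± 0.12 and 0.19 ± 0.12. Fkbp4, a prolyl isomerase of steroid receptor complexes, differed by 0.26 ± 0.12 and 0.15 ± 0.12, and Cacybp by 0.21 ± 0.12 and 0.06 ± 0.12. None of these passed. Without the Ucp1-high libraries Hsp90aa1 differed by 0.22 and 0.26 and Chordc1 by 0.35 and 0.23.

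Of the J-domain partners, Dnajb1, the classical heat-inducible one, differed by 0.29 ± 0.23 and 0.60 ± 0.23 (adjusted p = 0.672 and 0.137), and by 0.17 and 0.30 without the Ucp1-high libraries. Dnaja1 was 118, 161 and 174 in ZT3_RUN and 177, 184 and 232 in ZT15_RUN, groups that did not overlap, yet its difference of 0.37 ± 0.14 missed the threshold (adjusted p = 0.137). Of the Dnaja1 windows, 30.1% occur elsewhere. Members without overlap between the times numbered 5 higher at ZT15 in sedentary mice (Dnaja2, Dnajb6, Dnajc9, Hspa2, Ppid), where 1.20% of all genes were so, and 5 in exercised mice (Dnaja1, Dnaja2, Dnajb6, Hspa2, Hspa8), where 1.50% of all genes were. None lay wholly lower at ZT15, as did 1.31% and 0.764% of all genes.

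In mitochondria, Hspe1, or Hsp10, differed by 0.34 ± 0.14 and 0.32 ± 0.14 (adjusted p = 0.305 and 0.192), and its partner Hspd1, or Hsp60, by 0.12 ± 0.13 and 0.29 ± 0.13 (adjusted p = 0.760 and 0.189). With the Ucp1-high libraries left out, the values were 0.26 and 0.14 for Hspe1 and 0.05 and 0.14 for Hspd1. Of the Hspd1 windows, 50.8% occur elsewhere, chiefly in Hspd1-ps3. Hspa9, the mitochondrial Hsp70, differed by 0.06 ± 0.14 and 0.26 ± 0.14, and by -0.0027 and 0.06 without them. It had its highest values in ZT15_RUN_6 (788) and ZT15_RUN_1 (725), both Ucp1-high, and its lowest (331) in ZT3_RUN_4, the library highest in Cd79a.

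**Figure D2:**
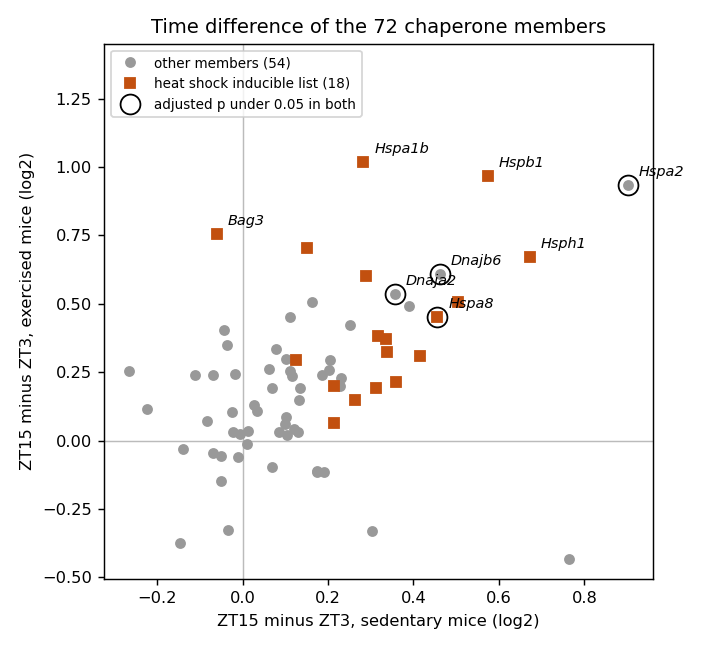
Log2 difference between ZT15 and ZT3 in sedentary mice (horizontal) against that in exercised mice (vertical) for the 72 members. Orange squares are the 18 heat shock inducible genes, grey points the other 54, and rings mark the 4 genes with adjusted p under 0.05 in both; most points lie above 0 on both axes.

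**Figure D3:**
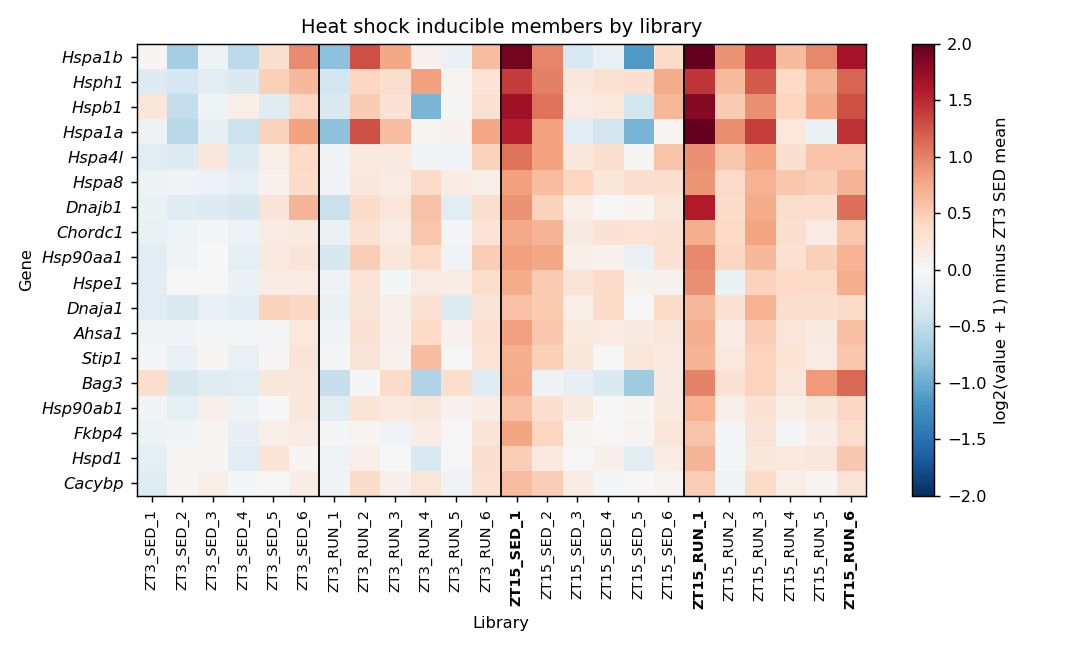
Heat shock inducible members (rows) in the 24 libraries (columns, groups separated by lines, Ucp1-high libraries in bold). Colour gives log2(value + 1) minus the ZT3_SED mean, red above and blue below it, with the scale ending at 2 on either side; the reddest columns are ZT15_SED_1, ZT15_RUN_1 and ZT15_RUN_6.

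The small heat shock proteins keep unfolded proteins soluble without using ATP. Hspb1, or Hsp27, was 20.6, 29.5 and 38.8 in ZT3_SED, 14.9, 32.3 and 41.6 in ZT3_RUN, 22.2, 40.0 and 95.2 in ZT15_SED and 39.3, 52.6 and 104 in ZT15_RUN. The log2 differences between the times were 0.58 ± 0.30 and 0.97 ± 0.30 (adjusted p = 0.462 and 0.0672), and 0.35 and 0.67 without the Ucp1-high libraries. Of the Hspb1 windows, 55.8% occur elsewhere, chiefly in Hsp25-ps1, so its level is uncertain. Hspb6 and Hspb7, which are abundant in muscle, were high in libraries rich in the muscle myosin Myh4, and neither passed in any comparison. Hspb6 ran from 7.13 in ZT15_RUN_2 to 73.5 in ZT15_RUN_6, and within ZT3_RUN from 7.57 to 51.5. Hspb7 ran from 0.124 in ZT3_SED_5 to 21.1 in ZT15_RUN_1. Myh4 was 15.8 in ZT3_SED_5 and 61.4 in ZT15_RUN_2, against 8995 in ZT15_RUN_1 and 22113 in ZT15_RUN_6. The summed value of 12 muscle markers spanned 105 to 19171 in ZT3_SED, 434 to 13367 in ZT3_RUN, 68.4 to 44362 in ZT15_SED and 221 to 49003 in ZT15_RUN, so that no group was free of muscle RNA.

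**Figure D4:**
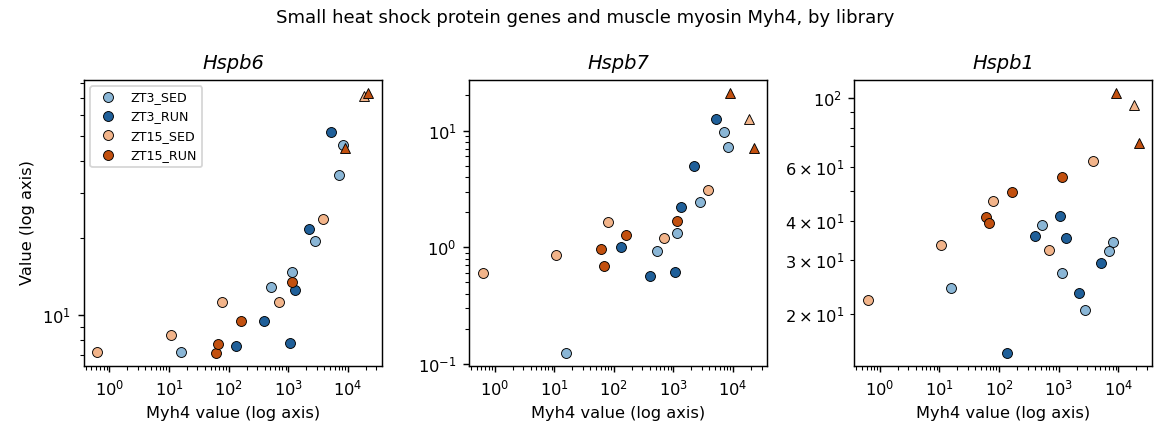
Values of Hspb6, Hspb7 and Hspb1 (vertical, log axis) against the muscle myosin Myh4 (horizontal, log axis) in the 24 libraries, coloured by group, with triangles for the Ucp1-high libraries. The libraries highest in Hspb6 and Hspb7 all have high Myh4, and Hspb1 spans 14.9 to 104, with the Ucp1-high libraries on top.

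Exercise gave fewer calls. At ZT3, 0 of 72 members passed, and neither did any of the 16233 genes (0%); 2 members had an unadjusted p under 0.05, where 2.27% of all genes did. No member was without overlap there, and 0.0493% of all genes were in the higher and 0.0246% in the lower direction. At ZT15, 0 members passed where 0.641% of all genes did (0.481% higher, 0.160% lower), and 11 members had an unadjusted p under 0.05 beside 12.7% of all genes. The all-gene count behind that share, 104, was 0 without the Ucp1-high libraries, and with single libraries left out it ran from 16 (without ZT15_RUN_4) to 293 (without ZT3_RUN_4), moving by over 1.5 times for 13 of 24 libraries. The difference between the exercise effects at the 2 times was called for 0 members and 0% of genes, with 2 members and 7.84% of genes at an unadjusted p under 0.05. DESeq2 on the recovered reads called Dnajb13 and Ppid at ZT15 and Dnajc6 for the difference between times, and none at ZT3, where over all 16233 genes it called 541 at ZT15, 239 for the difference and 0 at ZT3, so that the members' share was near that of all genes. In these 3 comparisons edgeR called no member. Averaged over both times, 1 member, Ppid, was called higher, where 0.142% of all genes were called, 0.123% higher and 0.0185% lower, and 6 members had an unadjusted p under 0.05 beside 7.74% of all genes.

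Ppid encodes cyclophilin 40, a prolyl isomerase that docks on Hsp90. Its values were 45.8, 51.0 and 53.2 in ZT3_SED and 52.4, 59.3 and 67.2 in ZT3_RUN. At ZT15 they were 55.0, 57.0 and 66.6 in sham and 64.9, 68.3 and 75.4 in exercised mice. Exercised libraries were mostly higher, with slight overlap at both times, through ZT3_RUN_1 (52.4) at ZT3 and through ZT15_SED_1 and ZT15_SED_2 at ZT15. The log2 change was 0.25 ± 0.07 at ZT3 (adjusted p = 0.989), 0.22 ± 0.07 at ZT15 (adjusted p = 0.116) and 0.24 ± 0.05 averaged over both (adjusted p = 0.0421). Without the Cd79a-high libraries the averaged change was 0.20 (adjusted p = 0.0859), and without the Ucp1-high ones 0.23 (adjusted p = 0.156), so the call was lost in each. It was also lost when blocks of title numbers were added as a covariate (0.24, adjusted p = 0.0595), and leaving out single libraries kept it in 4 of 24 fits. Ppid was also higher at ZT15 than at ZT3 by 0.23 ± 0.07 in sedentary and 0.20 ± 0.07 in exercised mice, short of the threshold (adjusted p = 0.0945 and 0.0847). Of the Ppid windows, 17.0% occur elsewhere.

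Dnajb13, a J-domain protein of sperm flagella and cilia, was 5.17, 6.70 and 9.36 in ZT15_SED and 10.7, 13.3 and 22.4 in ZT15_RUN. These groups did not overlap, as was so for 1.00% of all genes in this direction, and the log2 change was 0.96 ± 0.27 (adjusted p = 0.0911). At ZT3 it was 16.3 in ZT3_SED_1 and 3.79 to 6.95 in the other 5 sham libraries, and 4.43 in ZT3_RUN_1 and 9.77 to 14.4 in the other 5 exercised ones. The change at ZT3 was 0.58 ± 0.27 (adjusted p = 0.989), and averaged over both times 0.77 ± 0.19 (adjusted p = 0.0909). With ZT3_SED_1 and ZT3_RUN_1 set aside, Dnajb13 was called at ZT3 (1.03, adjusted p = 0.0227), at ZT15 (0.96, adjusted p = 0.00565) and on average (1.00, adjusted p = 0.000181). Those 2 libraries were chosen after their values were seen and are the ones that run against this difference, so the second set of values is a description and gives no support to the first. The Dnajb13 transcript shares 10.5% of its windows with the neighbouring Ucp2, whose own change at ZT15 was 0.46 ± 0.22 (adjusted p = 0.381), and reads of the 2 genes may not be told apart there. At ZT3, Ucp2 was 158 in ZT3_SED_1 and 75.8 to 102 in the other sham libraries. It was 80.1 in ZT3_RUN_1 and 100.4 to 203 in the other exercised ones.

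Bag3, which links Hsp70 to the removal of damaged proteins, was 25.2, 38.1 and 71.05 in ZT15_SED and 49.6, 67.0 and 93.4 in ZT15_RUN. Only ZT15_SED_1, a Ucp1-high library, reached the exercised range. The change was 0.72 ± 0.22 at ZT15 (adjusted p = 0.130) and -0.10 ± 0.22 at ZT3 (adjusted p = 0.989), and the difference between the 2 was 0.82 ± 0.31 (adjusted p = 0.583). At ZT15 it was 0.67 without the Ucp1-high libraries and 0.53 without the Cd79a-high ones. Hspa1b differed by 1.04 ± 0.43 at ZT15 and 0.30 ± 0.43 at ZT3 (adjusted p = 0.305 and 0.989) and Hspa1a by 0.88 ± 0.42 and 0.33 ± 0.42 (adjusted p = 0.395 and 0.989), each with overlapping groups. The ZT15 values without Ucp1-high libraries were 1.03 and 0.73. Hspa8 differed by 0.16 ± 0.11 at both times.

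**Figure D5:**
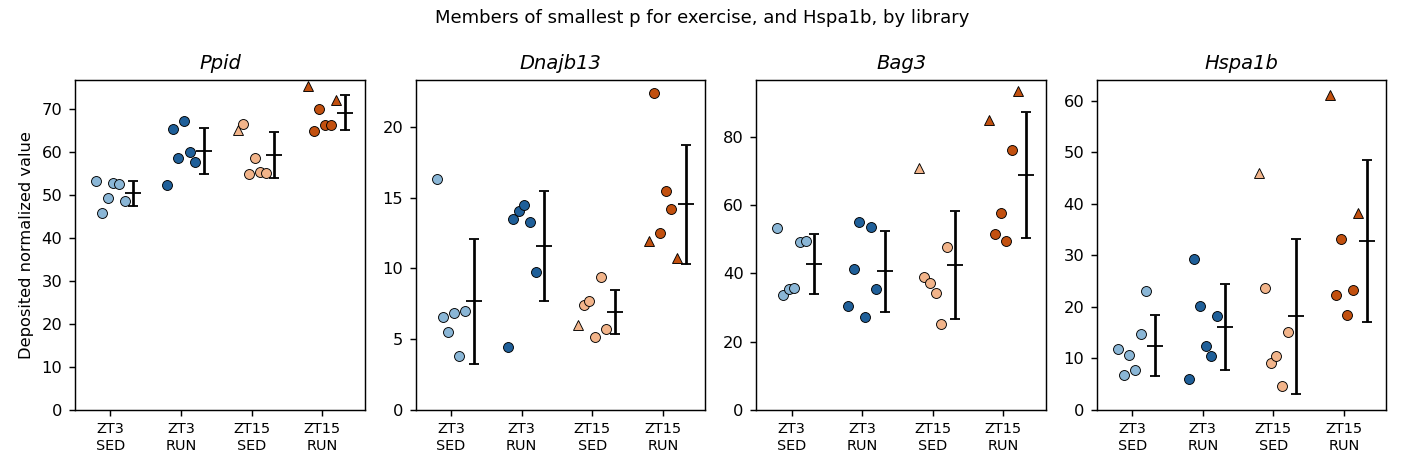
Deposited normalized values (vertical axis, starting at 0) of Ppid, Dnajb13, Bag3 and Hspa1b by group (horizontal axis). Each point is 1 library, triangles are Ucp1-high libraries, and bars give the mean ± SD of 6 libraries; the Dnajb13 points of ZT15_RUN (10.7 to 22.4) lie above those of ZT15_SED (5.17 to 9.36).

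Dnajc9, a J-domain protein that handles histones in dividing cells, was 13.0, 13.7 and 22.0 in ZT15_SED and 10.3, 10.9 and 12.0 in ZT15_RUN, without overlap, as was so for 0.745% of all genes in this direction. Its change at ZT15 was -0.39 ± 0.18 (adjusted p = 0.359), and the difference between the times -0.63 ± 0.25 (adjusted p = 0.583). The highest values were in ZT3_RUN_4 (31.8) and ZT15_SED_5 (22.0), the libraries with the most Cd79a (99.2 and 54.6). Without the Cd79a-high libraries the ZT15 change was -0.25 ± 0.07 (adjusted p = 0.150) and the difference between times -0.26 ± 0.10. Without ZT3_RUN_4 alone, which is not a ZT15 library, the ZT15 change was -0.39 ± 0.10 and passed (adjusted p = 0.0452), where 293 of all genes were called. Without ZT15_SED_5 alone it was -0.29 ± 0.18 (adjusted p = 0.655). The lymphocyte list (10 of 10 measured) summed to 794 at most in ZT15_SED and 12.8 at most in ZT15_RUN, and its part in the Dnajc9 difference beyond this was not tested. The Hspa14 row ENSMUSG00000109865, for an Hsp70 that works at the ribosome, differed by 0.20 ± 0.10 at ZT3 and -0.09 ± 0.10 at ZT15, the difference being -0.29 ± 0.14 (adjusted p = 0.583). Both Hspa14 rows were highest in ZT3_RUN_4, the library with the most Cd79a. Leaving out single libraries gave 0.14 to 0.28 at ZT3 for the row ENSMUSG00000109865.

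The direction of the heat shock inducible list under exercise at ZT15 was uneven across settings. At ZT15, 16 of 18 were above 0 with a median of 0.14, beside 50.7% of all genes. Without both the Ucp1-high and Cd79a-high libraries 10 of 18 were above 0 and the median was 0.02, beside 48.7% of all genes and a median of -0.0046. At ZT3, 16 of 18 were above 0 with a median of 0.15, beside 51.8% of all genes, and none had an unadjusted p under 0.05. The ZT3 count is given for the reported fit alone, which holds ZT3_RUN_4, ZT3_SED_1 and ZT3_RUN_1.

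Other genes of the folding machinery were read from 6 lists outside the members. Heat shock factors and associated genes (5 genes), TRiC chaperonin subunits (8), prefoldin subunits (6), other mitochondrial folding and protease genes (8) and the endoplasmic reticulum chaperones left out by the rule (6) gave 0 calls in any comparison. Of 18 other Hsp70 and Hsp90 partners, 2 were called, both between times in sedentary mice. Fkbp5, a glucocorticoid-induced cochaperone of steroid receptors, was higher at ZT15 by 1.21 ± 0.30 (adjusted p = 0.0479), and Bag4 was lower, with a difference of -0.57 ± 0.13 (adjusted p = 0.0310). Neither was recomputed without the libraries that stand apart. The medians of the TRiC and endoplasmic reticulum lists in that comparison were 0.15 and -0.03, beside 0.12 for the members. The genes with the highest mean value in each uncalled list, a choice that takes no account of gene length, were Hsbp1, Tcp1, Pfdn5, Yme1l1 and Hspa5, with adjusted p-values of 0.977, 0.288, 0.796, 0.777 and 0.974 in that comparison.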

How the data were processed

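Values of 16233 genes in 24 libraries were taken from the table the authors deposited, in which the unit is a normalized signal. A stranded kit was used on total RNA freed of ribosomal RNA, per the labels' protocols. The submitters' processing notes list limma 3.48.3, featureCounts, Subread 1.6.2, and STAR, while build, annotation, strand setting and any filter on low counts were not given in the sources used here. Each deposited signal value was a whole multiple of the value of 1 read (100% whole at a tolerance of 0.01), and the scaling matched TMM factors recomputed from the recovered reads (largest relative difference 1.554e-15). No gene length enters, so levels are not compared between genes.

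Differences were tested with limma 3.58.1 in R 4.3.3, with variance trend, on log2(value + 1), in 1 fit of 4 group means over all 24 libraries and 6 contrasts; a log2 difference on this scale understates that of low genes. Benjamini-Hochberg adjustment ran over all genes, with a threshold of 0.05. Procedures were tested on simulated data. Alternatives included edgeR 4.0.16 and DESeq2 1.42.0 on the recovered reads. Named members are the heat shock inducible list with Hspa9 and Ppid, those called in a contrast or else the 3 of smallest p, and the 4 most variable; Dnajc6 was named after its values were seen. Members and lists were chosen with earlier results of these data known. Promoters and shared 38-base windows come from RefSeq GRCm38.p6 and GENCODE M21 tables.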

Additional observations from a re-analysis of the deposited data

Results flagged for a closer look

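Of 116 groups of 6 libraries examined for 29 named members, 10 held a highest library that stood far from the next by Dixon's ratio (above 0.625); chance flags about 1 in 20 groups. Muscle-linked members gave 5 of them: Hspb6 was 51.5 in ZT3_RUN_5 and 71.4 in ZT15_SED_1, and Hspb7 was 12.6 in ZT3_RUN_5, 12.5 in ZT15_SED_1 and 21.1 in ZT15_RUN_1. Dnajc9 was 31.8 in ZT3_RUN_4 and 22.0 in ZT15_SED_5, both Cd79a-high. Hspa9 was 635 in ZT15_SED_1, a Ucp1-high library. Dnajb13 was 16.3 in ZT3_SED_1, and Ahsa1 was 77.0 in ZT3_SED_6.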

How the results depend on the processing

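Results were recomputed under 15 alternatives, 6 of them added after seeing the data (edgeR, DESeq2, and 4 that leave out libraries), and without each of the 24 libraries in turn. The time-of-day call of Hspa2 was kept in 15 of 15 alternatives and 24 of 24 leave-one-out fits in both comparisons. Dnaja2 and Dnajb6 were kept in 15 of 15 in exercised and 14 of 15 in sedentary mice, and in 24 of 24 leave-one-out fits of each. Hspa8 was kept in 9 of 15 and 8 of 24 in sedentary and in 10 of 15 and 21 of 24 in exercised mice, Dnajb12 in 7 of 15 and 6 of 24, and Ppid, averaged over both times, in 9 of 15 and 4 of 24.

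Members called for exercise at ZT15 numbered 1 with centring, in a fit of the compared groups only, at a threshold of 0.1 and with ZT3_SED_1 and ZT3_RUN_1 set aside, and 2 with DESeq2. All genes called in these settings numbered 155, 95, 300, 199 and 541, against 104 in the reported fit. At ZT3 the members called numbered 1 with those 2 libraries set aside, where 19 of all genes were called. Those libraries were chosen after seeing the data by values that oppose the exercise difference. The interaction gave 1 (Dnajc6) with DESeq2, where 239 of all genes were called. For time in sedentary mice the count was 9 with lymphocyte and muscle scores as covariates, 7 without the Cd79a-high libraries and 1 without these and the Ucp1-high ones, where 562, 255 and 165 of all 16233 genes were called, against 191 in the reported fit. In exercised mice it was 3 with quantile normalization, with the compared groups only, without the Ucp1-high libraries and with the 2 ZT3 libraries set aside, 9 with covariates, 11 at a threshold of 0.1 and 12 with DESeq2. All genes called there numbered 426, 109, 218 and 434 in the settings that gave 3, and 1072, 1287 and 1575 in the others, against 680. Averaged exercise gave 0 with quantile normalization, without the variance trend, with blocks of title numbers and without the Ucp1-high, the Cd79a-high or both sets, and 2 with covariates, a threshold of 0.1, DESeq2 and the 2 ZT3 libraries set aside. All genes called for it numbered 8, 20, 16, 0, 1 and 0 in the settings that gave 0, and 120, 94, 193 and 266 in the others, against 23. Leave-one-out counts were 0 to 0 for exercise at ZT3 and the interaction, 0 to 1 at ZT15, 3 to 4 for time in sedentary and 3 to 9 in exercised mice, and 0 to 2 for averaged exercise.

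Of 68 reported gene differences under the 15 alternatives, 14 values reversed in direction. In sedentary time differences without the Ucp1-high libraries, Hspa1a was -0.13, Hspa1b -0.043 and Hspa9 -0.0027. Leaving out single libraries gave ranges of -0.13 to 0.37 for Hspa1a, -0.043 to 0.57 for Hspa1b and -0.0027 to 0.11 for Hspa9, each lowest without ZT15_SED_1, and -0.22 to 0.072 for Bag3. Bag3 was 0.18 with covariates, 0.13 without the Cd79a-high libraries and 0.0070 with the 2 ZT3 libraries set aside. In exercised mice Cacybp was -0.019 without the Ucp1-high libraries, Hspa9 -0.044 without both sets, and Hsp90ab1 -0.059 with quantile normalization. For exercise, Hspa8 at ZT15 was -0.030 with quantile normalization. Bag3 at ZT3 was 0.013 with covariates, 0.0029 without the Cd79a-high libraries or both sets, and 0.040 with the 2 ZT3 libraries set aside, and ranged from -0.20 to 0.0029 over single libraries left out. The cause was not tested. Of all genes called for time in exercised mice, 415 were higher and 265 lower, and 543 and 172 with centring; for exercise at ZT15, 78 and 26, then 139 and 16 with centring and 67 and 5 with quantile normalization. No paired analysis was possible because the titles give each library a number of its own. Depth of 18.5 to 34.7 M reads limits low members such as Hspb7 most.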
